A study of Homo sapiens with 8 samples.

Results

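The 48 genes described here encode proteins used in S phase (21 genes) or in G2 and mitosis (27 genes), and they were picked by symbol from the 50006 genes of the deposited count tables. All 48 were present and all 48 passed the filter on low counts. RNA came from BEAS-2B, a human bronchial epithelial line of wild-type genotype by the labels, after 4 h in serum-free LHC-9 medium with 1 of 3 fibrinogen-related preparations or buffer. FBG stands for fibrinogen, FCP for material labelled as Der m 1-derived (a mite allergen), an abbreviation that the labels do not expand, and aC for the fibrinogen αC domain, each at 4 ng/µl, while Mock cells had PBS. Each group had 2 libraries, numbered as biological replicates, and 8 libraries were used in all. The labels name no day or batch and do not say how the cultures were kept apart. The p-values below therefore set a group difference only against the spread estimated from these libraries, which may in part be technical.

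Cells copy their DNA in S phase and divide it in mitosis. Genes for origin licensing, the replicative helicase, the sliding clamp and nucleotide supply are switched on by E2F factors around the start of S phase. Genes for cyclin B, the mitotic kinases, kinetochores, the spindle and cytokinesis follow in G2 through the MuvB, B-Myb and FoxM1 complexes, and many of their proteins are degraded at the end of mitosis. BEAS-2B cells were immortalised with SV40 T antigen, which binds the RB family of E2F inhibitors, and the line cycles in culture. In RNA from a whole culture, fewer cells in a phase and less RNA per cell cannot be told apart.

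In cells given FCP or aC, 20 of the 21 S phase genes were lower than in Mock. Of all tested genes 36.1% and 36.7% fell (edgeR adjusted p under 0.05). Median changes of the 21 were -0.64 and -0.66 on the log2 scale. Only cyclin E2 (CCNE2) was higher, and its rise did not remain once trends with GC content and gene length were removed. FCP and aC libraries also differed from Mock in epithelial and mesenchymal markers, and this difference and the preparation cannot be told apart. The G2 and mitosis genes split in 2 directions in FBG, FCP and aC alike. With FCP 40.7% of them rose, near the 37.3% of all tested genes, and with aC 40.7%, near 38%. ASPM, CENPF, CENPE, MKI67 and KIF20B, which encode very large spindle, kinetochore and chromosome proteins, were 2.39-fold to 5.69-fold higher than in Mock. Cyclin B1 (CCNB1), PLK1, CDC20, BIRC5, KIF2C and UBE2C, shorter genes of mitotic entry and exit, were lower by up to 1.22 on the log2 scale. In FBG the S phase changes were smaller, with a median of -0.07 and a range of -0.40 to 0.50.

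Promoters are shown for genes from each direction of change, since the members of a phase are textbook targets of shared factors. RefSeq (GRCh38.p14) gave a promoter for 40 of the 48 genes, 17 of S phase and 23 of G2 and mitosis. Each line holds the 120 bases before the annotated start, 5′ to 3′ on the gene's strand. Capitals mark 3 kinds of match, sought on both strands. They are E2F-like words (TTTCCCGC, TTTCGCGC, TTTGCCGC, TTTGGCGC), the core of the cell cycle homology region (CHR, searched as TTTGAA and TTCGAA) and the CCAAT box. The first 3 sequences are S phase genes that were lower in FCP and aC. All 3 hold an E2F-like word, which 9 of the 17 S phase promoters lacked.
PCNA: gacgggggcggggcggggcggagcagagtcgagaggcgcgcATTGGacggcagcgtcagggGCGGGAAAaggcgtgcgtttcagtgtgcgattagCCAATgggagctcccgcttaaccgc
CDT1: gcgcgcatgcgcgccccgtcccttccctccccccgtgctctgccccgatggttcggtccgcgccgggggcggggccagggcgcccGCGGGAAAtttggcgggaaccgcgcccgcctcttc
MCM6: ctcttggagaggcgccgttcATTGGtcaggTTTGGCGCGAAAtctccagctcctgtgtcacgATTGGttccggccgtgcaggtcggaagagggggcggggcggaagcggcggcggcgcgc
The next 3 are mitotic genes that were higher in FBG, FCP and aC.
MKI67: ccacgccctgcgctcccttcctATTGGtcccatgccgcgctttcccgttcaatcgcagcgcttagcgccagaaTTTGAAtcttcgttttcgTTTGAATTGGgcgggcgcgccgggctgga
ASPM: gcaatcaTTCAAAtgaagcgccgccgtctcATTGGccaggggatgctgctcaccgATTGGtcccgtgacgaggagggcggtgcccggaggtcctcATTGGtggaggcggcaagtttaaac
CENPF: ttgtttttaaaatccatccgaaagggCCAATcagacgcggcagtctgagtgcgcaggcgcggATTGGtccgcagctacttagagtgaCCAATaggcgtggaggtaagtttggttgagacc
The last pair are mitotic genes that were lower in FBG, FCP and aC.
CCNB1: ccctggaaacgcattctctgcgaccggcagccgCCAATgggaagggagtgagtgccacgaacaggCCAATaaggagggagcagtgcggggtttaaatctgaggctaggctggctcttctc
CDC20: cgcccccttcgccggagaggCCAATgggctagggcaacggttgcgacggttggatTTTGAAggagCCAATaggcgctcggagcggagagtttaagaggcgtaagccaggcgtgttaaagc
These windows lie at chr20:5126623-5126742 (minus strand), chr16:88803669-88803788 (plus), chr2:135876444-135876563 (minus), chr10:128126424-128126543 (minus), chr1:197146670-197146789 (minus), chr1:214603075-214603194 (plus), chr5:69167030-69167149 (plus) and chr1:43358861-43358980 (plus).

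Over the full 250 bases before the start, 8 of 17 S phase promoters (47.1%) and 1 of 23 G2 and mitosis promoters (4.35%) held an E2F-like word, against 2.79% of 27305 promoters in the table. The CHR core was in 14 of 23 G2 and mitosis promoters (60.9%) and 2 of 17 S phase promoters (11.8%), against 14.6% of all. A CCAAT box stood in 19 of 23 (82.6%) and 11 of 17 (64.7%), against 33.0% of all. Matches can overlap: in MKI67 the second CHR core and a CCAAT box share a base, and in MCM6 E2F-like words on the 2 strands overlap. Both directions of change occurred with and without the CHR core as searched. Other forms of the CHR and of the E2F-like words were not sought, so a promoter counted as without one may hold another form. Among the 14 genes with a CHR core 8 rose and 6 fell in FCP against Mock (edgeR adjusted p under 0.05), and among the 9 without one 3 rose and 5 fell, where 37.3% of all tested genes rose and 36.1% fell. All 8 S phase genes with an E2F-like word and all 9 without one fell in FCP against Mock, with medians of -0.63 and -0.75. A match is a string of letters, and binding was not measured.

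Total counts ran from 15137196 to 22258791 per library, and TMM scaling factors from 0.906 in Mock to 1.06 in aC. Levels below are CPM (counts relative to library size) scaled by TMM, changes are log2 fold changes with their standard error (SE) from edgeR's quasi-likelihood test over 16307 genes, n = 2 against 2, and a gene is called risen or fallen at an adjusted p under 0.05. Pure counting of reads gives a larger error than the fitted SE for 17 of the 48 genes with FBG, 12 with FCP and 11 with aC, each set against Mock, so these SEs are too small. No called member had a 95% counting interval of its fold change that included 0. Identity markers divided the same libraries. Of 8 epithelial markers the summed level was 25.8 to 27.3 TMM-scaled CPM in FBG, 2581 to 2610 in FCP, 2724 to 2789 in aC and 12.1 to 12.7 in Mock, where GRHL2 was at 0 counts. The sum of 8 mesenchymal markers was 1433 in FBG, 297 to 300 in FCP, 308 to 310 in aC and 2599 to 2630 in Mock. COL3A1 of that list was at 0 counts in all libraries. Among single genes, keratin KRT5 averaged 7.28 in FBG, 1581 in FCP and 1603 in aC, against 2.03 in Mock, and collagen COL1A1 1089, 173 and 184, against 2155 in Mock. KRT5 and COL1A1 made up most of both sums in FCP and aC, and COL1A1 most of the mesenchymal sum in FBG and Mock. Not every marker followed its sum: KRT14 averaged 0.27 in FBG against 2.27 in Mock, and ZEB1 31.7 in FBG against 17.5 in Mock. ZEB1 did not fall in FCP or aC either, at 17.5 and 18.5. Of 5 leukocyte markers PTPRC and CD3E had at most 1 count in a library, and the sum of the list, nearly all CD68, was 19.0 to 21.2 in FBG, 11.8 to 11.9 in FCP, 12.1 to 12.2 in aC and 27.0 to 32.6 in Mock. Of 3 endothelial markers the sum was at most 3.21 in any library. Median changes of whole chromosomes also differed in FCP against Mock, with chromosome 6, which carries MCM3, 0.42 above the autosomes. In FCP or aC against Mock or FBG, the preparation and this division of the libraries cannot be told apart. FBG differed from Mock in both sums by less than FCP and aC did. Its preparation and those smaller marker differences cannot be told apart either.

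**Figure D1:**
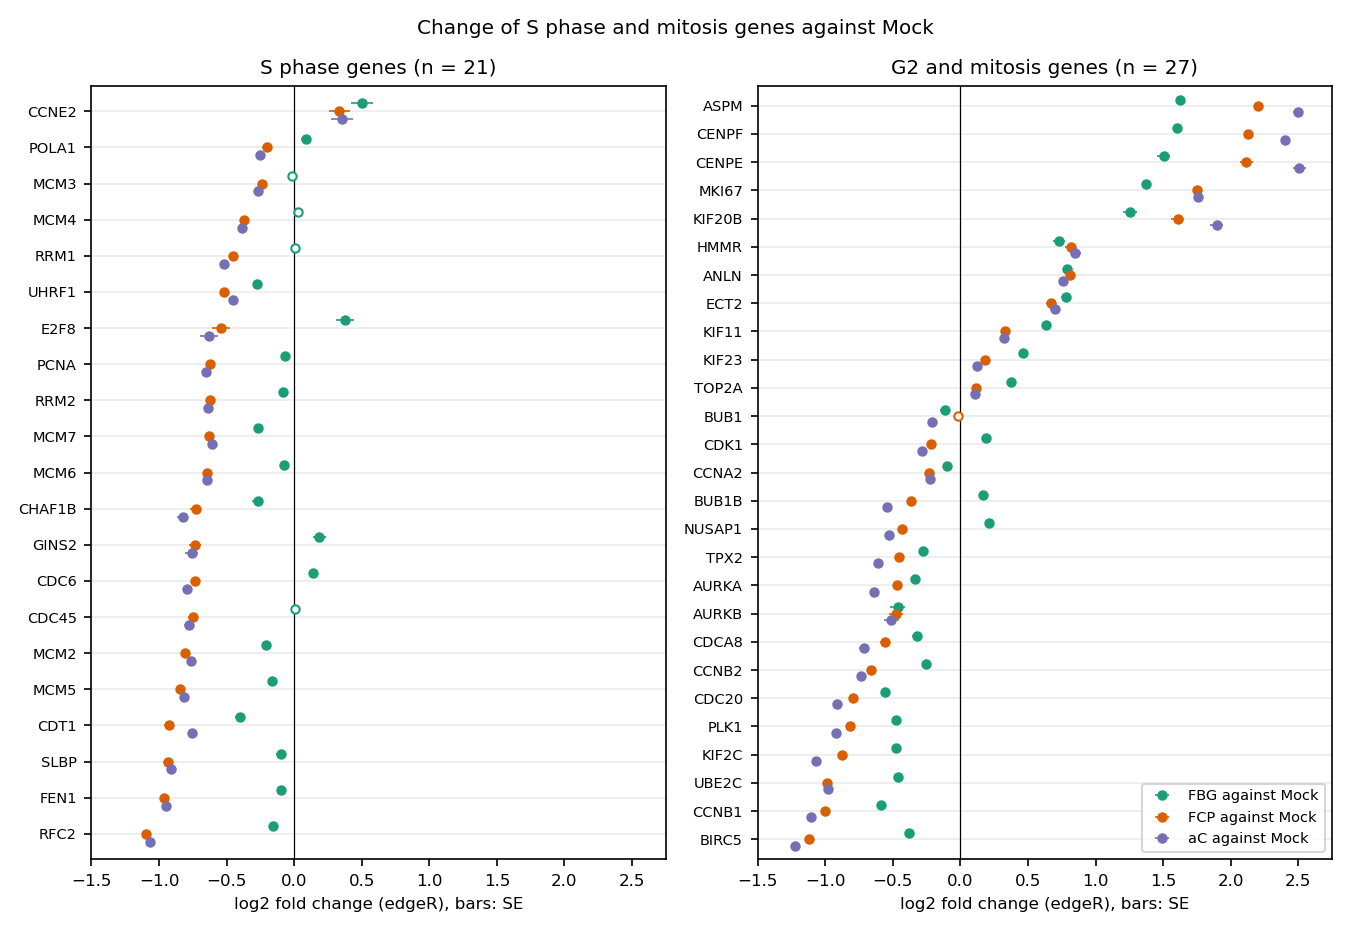
Log2 fold change of each gene (x axis) in FBG, FCP and aC against Mock, with S phase genes left and G2 and mitosis genes right, ordered by FCP against Mock. Bars are SE, filled points are called and open points are not. In FCP and aC all S phase genes but CCNE2 lie below 0, while ASPM, CENPF, CENPE, MKI67 and KIF20B lie above 1.

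S phase genes fell together in FCP and aC. In FCP against Mock 1 of the 21 rose and 20 fell, where 37.3% of all tested genes rose and 36.1% fell. The same counts, 1 and 20, were found in aC against Mock, where 38% of all tested genes rose and 36.7% fell. Median changes were -0.64 in FCP and -0.66 in aC, while all tested genes had a median of 0.06 in each. FCP and aC were both set against the same Mock libraries, so these counts are not independent. Scaling by library size alone put the median of all genes at 0.28 in FCP and 0.29 in aC, and the S phase medians at -0.42 and -0.43. In FBG against Mock 5 S phase genes rose, 12 fell and 4 were not called, where 24.2% of all genes rose and 26.3% fell, and the median was -0.07 beside 0.02 for all genes.

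Origin licensing genes, which load and start the MCM helicase, were among them. MCM2, a helicase subunit, had 519 and 529 TMM-scaled CPM in FBG, 344 and 347 in FCP, 356 and 358 in aC and 609 and 599.7 in Mock. FCP and aC libraries sat well under FBG, which sat under Mock, with no overlap. The changes were -0.21 ± 0.02 in FBG, -0.81 ± 0.02 in FCP and -0.76 ± 0.02 in aC. MCM5 and MCM7, of the same ring, followed with -0.85 and -0.63 in FCP and -0.81 and -0.61 in aC, and MCM6 with -0.64 and -0.64. MCM3 and MCM4 fell by 0.23 and 0.37 in FCP and by 0.26 and 0.39 in aC, less than the other 4 subunits, and neither was called in FBG (-0.02 and 0.03).

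CDT1, the factor that brings the MCM ring to origins, had 95.2 and 99.6 TMM-scaled CPM in FBG, 67.5 and 68.1 in FCP, 75.2 and 77.4 in aC and 130.2 and 127 in Mock. Every treated library was below both Mock libraries, and aC lay above FCP. Its changes were -0.40 ± 0.04 in FBG, -0.92 ± 0.04 in FCP and -0.75 ± 0.04 in aC. CDC6, its partner in licensing, rose by 0.14 in FBG and fell by 0.74 in FCP and 0.79 in aC. CDC45 and GINS2, which complete the active helicase, changed by -0.75 and -0.73 in FCP and by -0.78 and -0.76 in aC. In FBG, GINS2 rose by 0.19 and CDC45 was not called.

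Fork enzymes showed some of the largest falls. RFC2, a subunit of the loader that places the sliding clamp, had 164 and 162 TMM-scaled CPM in FBG, 85.8 and 83.98 in FCP, 88.2 and 84.9 in aC and 182 and 180.4 in Mock. FCP and aC lay far below FBG and Mock, and the changes were -0.15 ± 0.03 in FBG, -1.09 ± 0.03 in FCP and -1.07 ± 0.03 in aC (adjusted p = 4.11e-19 in FCP against Mock). FEN1, the nuclease that trims Okazaki fragments, had 331 and 335 TMM-scaled CPM in FBG, 183 and 182 in FCP, 188 and 180.3 in aC and 365 and 347 in Mock. It changed by -0.10 ± 0.02 in FBG, -0.96 ± 0.03 in FCP and -0.95 ± 0.03 in aC, so FBG lay close to Mock and the other 2 groups far below.

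PCNA, the sliding clamp itself, had 227 and 226 TMM-scaled CPM in FBG, 155 and 153 in FCP, 149 and 152 in aC and 235 and 241 in Mock. The FBG libraries lay just under the Mock libraries. Its changes were -0.07 ± 0.02 in FBG, -0.62 ± 0.02 in FCP and -0.66 ± 0.02 in aC. The antisense gene PCNA-AS1 covers 26.7% of the exon bases of PCNA, where reads could not be placed by strand. A pseudogene entry, PCNAP1, exists. POLA1, the catalytic subunit of the polymerase that primes synthesis, had the smallest fall of the S phase genes in FCP and aC, with changes of 0.08 ± 0.03 in FBG, -0.20 ± 0.03 in FCP and -0.25 ± 0.03 in aC. With library size alone POLA1 was at 0.02 in FCP.

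Nucleotide supply and histone handling followed the same direction. RRM1 and RRM2, the subunits of ribonucleotide reductase, fell by 0.45 and 0.63 in FCP and by 0.52 and 0.63 in aC. SLBP, which binds the stem-loop of histone messages, had 157 and 159 TMM-scaled CPM in FBG, 91.1 and 85.5 in FCP, 90.2 and 89.9 in aC and 167 and 171 in Mock. It changed by -0.10 ± 0.03 in FBG, -0.94 ± 0.03 in FCP and -0.91 ± 0.03 in aC. CHAF1B, a subunit of the chromatin assembly factor, had 91.2 and 89.1 TMM-scaled CPM in FBG, 67.7 and 63.4 in FCP, 60.2 and 62.4 in aC and 111 and 106 in Mock, and changed by -0.27 ± 0.04 in FBG, -0.73 ± 0.04 in FCP and -0.83 ± 0.04 in aC. UHRF1, which directs maintenance methylation to new DNA, had 245 and 247 TMM-scaled CPM in FBG, 208 and 209 in FCP, 221 and 214 in aC and 297 and 299 in Mock. UHRF1 was the S phase gene with the fourth-largest change in FBG, and its values were -0.28 ± 0.02 in FBG, -0.52 ± 0.02 in FCP and -0.45 ± 0.02 in aC.

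CCNE2 was the S phase gene that rose in FCP and aC. This gene for cyclin E2, which drives entry into S phase, had 23.7 and 26.8 TMM-scaled CPM in FBG, 22.5 and 22.5 in FCP, 23.5 and 22.2 in aC and 18.3 and 17.3 in Mock. All 6 treated libraries were above both Mock libraries, the FBG pair with the widest spread. Its changes were 0.50 ± 0.08 in FBG, 0.33 ± 0.08 in FCP and 0.36 ± 0.08 in aC. CCNE2 shares 43.7% of its exon bases with INTS8 on the other strand. The counting used no strand, so reads from the shared bases could not be placed by strand. E2F8, a repressor that acts late in S phase, had 43.1 and 42.1 TMM-scaled CPM in FBG, 21.7 and 23.3 in FCP, 20.4 and 21.95 in aC and 32.4 and 33.1 in Mock. It was above Mock in FBG and below Mock in FCP and aC, with changes of 0.38 ± 0.07 in FBG, -0.54 ± 0.07 in FCP and -0.63 ± 0.07 in aC. In FBG the risen S phase genes were therefore CCNE2, E2F8, GINS2, CDC6 and POLA1.

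Small changes in FBG depended on single libraries. The calls of PCNA, MCM6, SLBP, FEN1 and POLA1 in FBG against Mock, which lay between -0.10 and 0.08, were lost in at least 1 fit that left a library out. PCNA was at -0.07 without FBG replicate 1, -0.07 without FBG replicate 2 and -0.05 without Mock replicate 2. MCM6 was at -0.05, -0.07 and -0.08 without FBG replicate 1, Mock replicate 1 and Mock replicate 2. SLBP was at -0.09 without FBG replicate 1 and -0.08 without Mock replicate 2, and FEN1 at -0.06 without Mock replicate 1. POLA1 ran from 0.07 to 0.09 without either FBG or either Mock library. Scaling by library size alone gave 23 risen and 16 fallen of the 48 genes in FBG, while TMM gave 19 risen and 25 fallen.

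**Figure D2:**
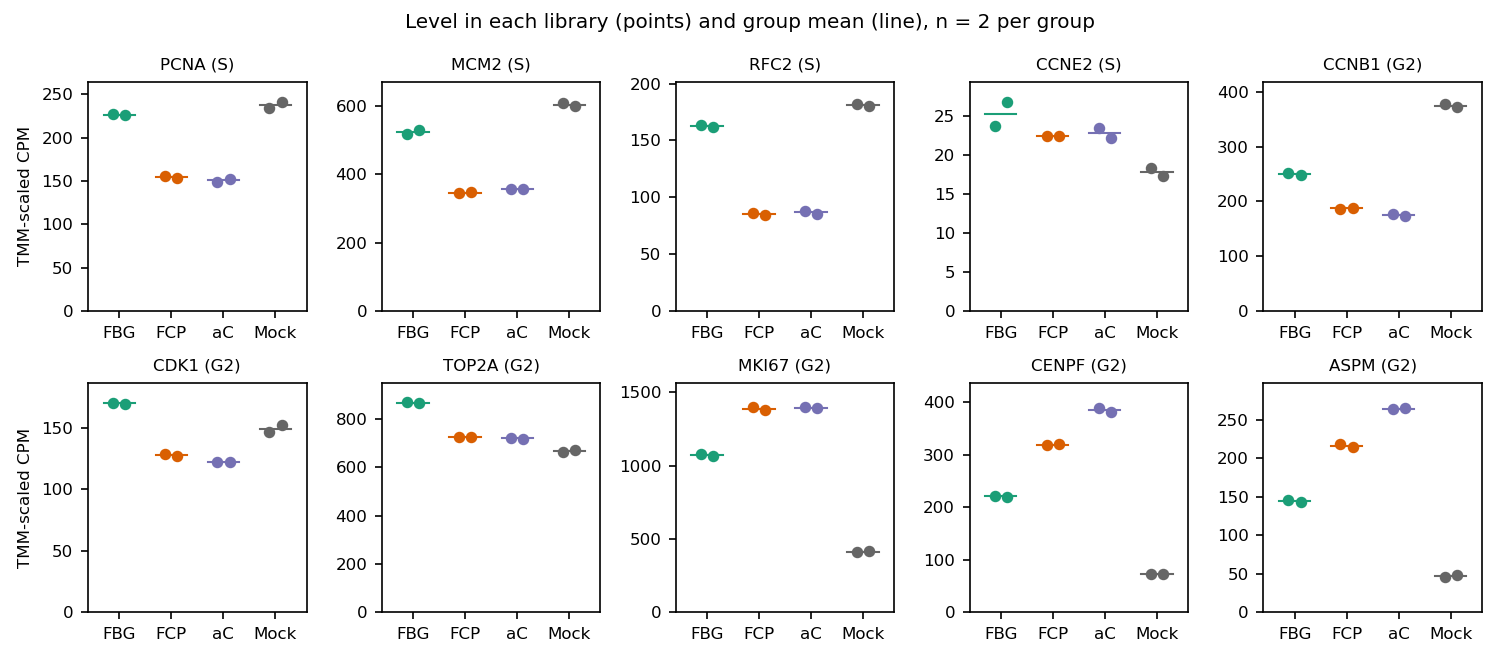
Level of 10 genes in TMM-scaled CPM (y axis, from 0) in each of the 8 libraries, with a line at the group mean (n = 2). PCNA, MCM2 and RFC2 are lowest in FCP and aC, while MKI67, CENPF and ASPM are lowest in Mock.

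The G2 and mitosis genes changed in both directions in every comparison with Mock. In FBG against Mock 14 of 27 rose and 13 fell, with a median of 0.17. In FCP against Mock 11 rose, 15 fell and BUB1 was not called, with a median of -0.23, and in aC against Mock 11 rose and 16 fell, with a median of -0.29. For FCP the risen share was 40.7%, near the 37.3% of all tested genes, and the fallen share was 55.6%, above their 36.1%. For aC 40.7% rose, near 38% of all tested genes, and 59.3% fell, above 36.7%. Only the falls were thus clearly more frequent than among all tested genes with these 2 preparations. With FBG both shares, 51.9% risen and 48.1% fallen, were above the 24.2% and 26.3% of all tested genes. The spread across the G2 and mitosis genes was wide: the SD of their changes was 0.73 in FBG, 1.04 in FCP and 1.18 in aC, against 0.22, 0.32 and 0.31 for the S phase genes.

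The 5 largest changes belonged to chromosome, kinetochore and spindle proteins. MKI67, which encodes Ki-67, the protein that coats mitotic chromosomes and the usual marker of cycling cells, had 1078 and 1063 TMM-scaled CPM in FBG, 1397 and 1379 in FCP, 1396 and 1391 in aC and 411 and 415 in Mock. The 4 FCP and aC libraries lay together at the top, the FBG pair below them and the Mock pair far below. The changes were 1.37 ± 0.02 in FBG, 1.75 ± 0.02 in FCP and 1.75 ± 0.02 in aC (adjusted p = 1.08e-27 in FCP against Mock).

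CENPF, a kinetochore and nuclear matrix protein, had 222 and 219 TMM-scaled CPM in FBG, 318 and 321 in FCP, 388 and 381 in aC and 72.8 and 73.02 in Mock. Its 4 groups stood in the order aC, FCP, FBG and Mock with no overlap. The changes were 1.599 ± 0.03 in FBG, 2.13 ± 0.03 in FCP and 2.40 ± 0.03 in aC. CENPE, the kinesin that moves chromosomes to the spindle equator, had 72.1 and 65.8 TMM-scaled CPM in FBG, 106 and 104 in FCP, 139.5 and 137 in aC and 25.01 and 23.6 in Mock. The order was the same, and the changes were 1.504 ± 0.05 in FBG, 2.11 ± 0.05 in FCP and 2.51 ± 0.05 in aC.

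ASPM, which works at spindle poles, had 146 and 143 TMM-scaled CPM in FBG, 218 and 214 in FCP, 264 and 265 in aC and 45.4 and 48.4 in Mock, again in the order aC, FCP, FBG and Mock. It changed by 1.63 ± 0.03 in FBG, 2.21 ± 0.03 in FCP and 2.496 ± 0.03 in aC. KIF20B, a kinesin of cytokinesis, had 67.2 and 72.02 TMM-scaled CPM in FBG, 86.7 and 90.97 in FCP, 109 and 108 in aC and 30.3 and 27.98 in Mock. The treated groups were each above Mock, with changes of 1.26 ± 0.05 in FBG, 1.61 ± 0.05 in FCP and 1.896 ± 0.05 in aC.

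HMMR, a spindle protein, ANLN, which organises the contractile ring, and ECT2, which activates RhoA at the division site, rose by 0.82, 0.81 and 0.67 in FCP and by 0.85, 0.76 and 0.70 in aC. In FBG they rose by 0.73, 0.79 and 0.78. HMMR-AS1 covers 10.1% of the exon bases of HMMR, where reads could not be placed by strand. KIF11, the motor that separates spindle poles, and KIF23, a motor of the central spindle, rose by 0.63 and 0.47 in FBG, by 0.33 and 0.18 in FCP and by 0.32 and 0.12 in aC.

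Cyclins and the kinase that they activate went down or stayed near Mock. CCNB1, the cyclin that drives mitotic entry, had 253 and 247 TMM-scaled CPM in FBG, 186 and 188 in FCP, 176 and 173 in aC and 378 and 372 in Mock. All treated libraries lay under both Mock libraries. It changed by -0.58 ± 0.02 in FBG, -1.003 ± 0.02 in FCP and -1.10 ± 0.02 in aC (adjusted p = 5.38e-21 in FCP against Mock). CCNB2 changed by -0.25, -0.66 and -0.74 in FBG, FCP and aC, and CCNA2, the cyclin of S phase and G2, by -0.10, -0.23 and -0.23.

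CDK1, the kinase partner of cyclin B, had 170.0 and 169.5 TMM-scaled CPM in FBG, 129 and 127 in FCP, 122 and 122 in aC and 146 and 152 in Mock. FBG lay above Mock, and FCP and aC below it. Its changes were 0.19 ± 0.03 in FBG, -0.22 ± 0.03 in FCP and -0.29 ± 0.03 in aC, and the FCP value was 4.9e-05 with library size alone. BUB1B, a spindle checkpoint kinase-like protein, and NUSAP1, which bundles spindle microtubules, showed the same split, with 0.17 in FBG, -0.36 in FCP and -0.54 in aC for BUB1B, and 0.21, -0.43 and -0.53 for NUSAP1. TOP2A, which untangles sister chromatids, had 869 and 867 TMM-scaled CPM in FBG, 728 and 725 in FCP, 722 and 718 in aC and 665 and 674 in Mock. Each treated library was above Mock, most so in FBG, with changes of 0.37 ± 0.02 in FBG, 0.12 ± 0.01 in FCP and 0.11 ± 0.01 in aC.

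PLK1, AURKA, AURKB, TPX2, BIRC5, CDCA8, CDC20, UBE2C and KIF2C fell in all 3 comparisons with Mock. PLK1, which acts from mitotic entry to cytokinesis, changed by -0.47 in FBG, -0.81 in FCP and -0.92 in aC. AURKA and AURKB, the Aurora kinases of the spindle and of the chromosomal passenger complex, changed by -0.34 and -0.46 in FBG, by -0.47 and -0.48 in FCP, and by -0.64 and -0.51 in aC. An AURKA pseudogene entry, AURKAP1, exists. TPX2, which activates AURKA on the spindle, changed by -0.28, -0.45 and -0.61. BIRC5 and CDCA8 (survivin and borealin), partners of AURKB, changed by -1.12 and -0.56 in FCP and by -1.22 and -0.72 in aC.

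CDC20 and UBE2C, the activator and the ubiquitin carrier of the anaphase-promoting complex, fell by 0.56 and 0.46 in FBG, by 0.80 and 0.99 in FCP and by 0.92 and 0.98 in aC. UBE2C has a pseudogene entry, UBE2CP5. KIF2C, a kinesin that shortens microtubules at centromeres, changed by -0.48, -0.88 and -1.07 in FBG, FCP and aC. BUB1, a checkpoint kinase, was at -0.12 in FBG and -0.21 in aC, and at -0.02 in FCP with overlapping groups (adjusted p = 0.62). Without Mock replicate 1 the call of BUB1 in FBG ended at -0.10.

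Changes of the G2 and mitosis genes followed gene length, taken as the exon bases per gene in the deposited tables. Across these 27 genes Spearman's rank correlation between length and change was 0.85 in FBG, 0.87 in FCP and 0.82 in aC against Mock. Across the 21 S phase genes it was 0.09, 0.48 and 0.42, and across 14330 tested genes 0.19, 0.23 and 0.22. Genes are not independent replicates, and all points of a comparison come from the same 4 libraries. Split at the median length of 3398, 10 of the 13 longer G2 and mitosis genes rose and 2 fell in FCP against Mock (median 0.67), while 1 of the 14 others rose and 13 fell (median -0.61). Of all tested genes, split at 3475 bases, 4429 of the 9504 longer ones rose and 2905 fell (median 0.22), and 1656 of the 6803 others rose and 2979 fell (median -0.21). HMMR was the gene that rose among the 14. Among S phase genes above their median length of 3480, 0 of 10 rose and 10 fell in FCP against Mock, with a median of -0.58.

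By length class, the 4 G2 and mitosis genes of at least 8000 bases (MKI67, CENPF, CENPE and ASPM) had a median of 1.55 in FBG, 2.12 in FCP and 2.45 in aC. All 3204 tested genes of that class had medians of 0.19, 0.48 and 0.49. From 4000 to 8000 bases, the 5 G2 and mitosis genes (TOP2A, KIF11, KIF20B, ANLN and ECT2) all rose in FBG, FCP and aC, with medians of 0.78, 0.67 and 0.70, beside 0.05, 0.11 and 0.11 for all 5202 genes. Of those 5202 genes 28.5% rose in FBG, 41.5% in FCP and 41.6% in aC. The 6 S phase genes of the same class (MCM4, MCM5, RRM2, CDC6, UHRF1 and CHAF1B) all fell in FCP and aC, with medians of -0.68 and -0.71. Of all 5202 genes 1742 fell in FCP and 1789 in aC. Below the median lengths both phases were mostly lower: in FCP against Mock 10 of 11 S phase genes (median -0.75) and 13 of 14 G2 and mitosis genes (median -0.61) fell. POLA1 lists 28560 exon bases, but its longest coding transcript in GENCODE 29 has 5486, so its place among the longest genes rests on how length is counted. With coding transcript length, the correlation over the 27 genes was 0.85, 0.83 and 0.79.

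**Figure D3:**
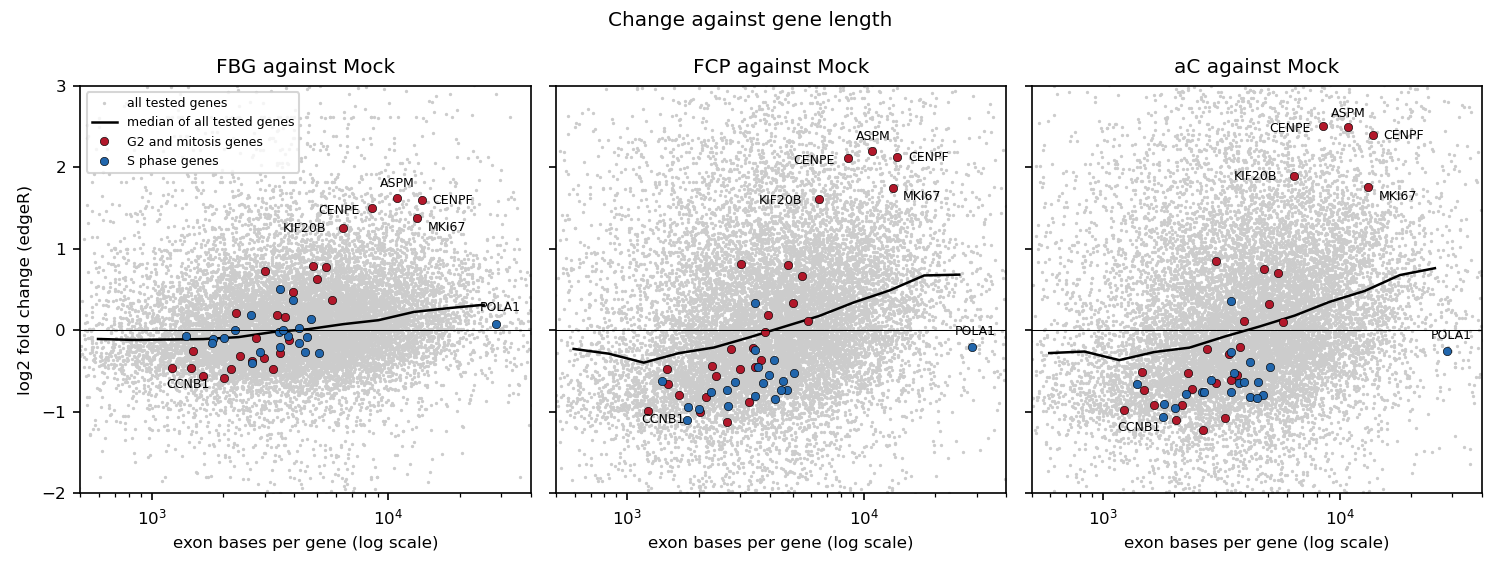
Log2 fold change (y axis) against exon bases per gene (x axis, log scale) in FBG, FCP and aC against Mock, with all tested genes in grey, their median by length as a line, and the 48 genes coloured by phase. Genes beyond the y axis are not drawn. The longest G2 and mitosis genes lie far above the line, while POLA1, the longest S phase gene, lies below it in FCP and aC.

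GC content moved with length among these genes. Across the 27 G2 and mitosis genes the rank correlation was -0.68 between length and GC content, and -0.79 between GC content and change in FBG and FCP. KIF20B has 34.1% GC and CENPE 35.5%, against 57.2% in PLK1 and 56.9% in CDC20. The fits were therefore repeated with GC and length trends removed from each library. These trends were fitted over the tested genes with a GC value and a mean count of at least 50. In FCP 33.3% of the 14330 genes then rose and 41.5% fell, in aC 33.7% and 42.7%, and in FBG 21.3% and 27.1%. After that, 0 S phase genes rose and 19 fell in FCP against Mock (median -0.55), and 0 rose and 20 fell in aC against Mock (median -0.54), with all 21 values below 0 in both. Of the G2 and mitosis genes 8 rose and 17 fell in each of these comparisons, with medians of -0.28 and -0.39.

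The 8 were MKI67, CENPF, CENPE, ASPM, KIF20B, HMMR, ANLN and ECT2. MKI67 then stood at 1.28 in FBG, 1.43 in FCP and 1.44 in aC, and CENPF at 1.17, 1.42 and 1.68. ASPM stood at 1.04, 1.34 and 1.603, CENPE at 0.86, 1.22 and 1.58, and KIF20B at 0.58, 0.74 and 0.98. The rises of TOP2A, KIF11 and KIF23 in FCP and aC did not remain. TOP2A turned to -0.40 in FCP and -0.42 in aC, KIF11 to -0.17 and -0.19, and KIF23 was not called in either. In FBG KIF11 and KIF23 were still called risen, at 0.21 and 0.26, and TOP2A was not called (-0.03). CCNE2 was no longer called in FBG (0.12), FCP (-0.04) or aC (-0.02). CDK1 turned to -0.35 in FBG and stood at -0.76 in FCP. AURKB was not called in FCP (0.02) or aC (-0.05). Several small falls in FBG did not remain either, with MCM2 at 0.01, MCM5 at 0.04, RFC2 at 0.04, SLBP at 0.03 and FEN1 at 0.11. In FBG the medians became 0.03 for S phase genes and -0.17 for G2 and mitosis genes, with 7 risen and 8 fallen and with 12 risen and 14 fallen. The rank correlation between length and change over the 27 genes was still 0.71 in FBG, 0.63 in FCP and 0.63 in aC.

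**Figure D4:**
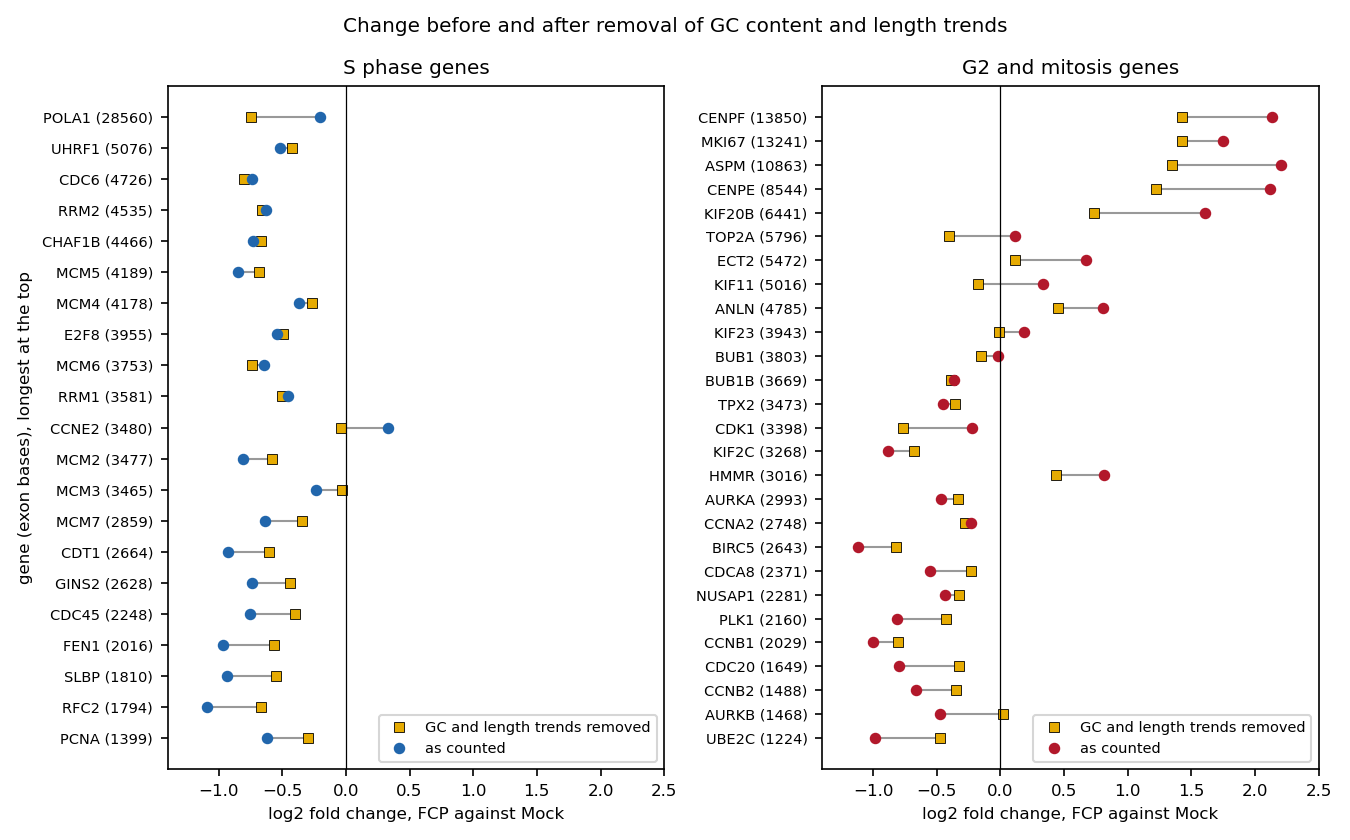
Log2 fold change in FCP against Mock (x axis) as counted (circles) and with the GC and length trends taken out (squares), with genes ordered by exon bases, longest at the top. CENPF, MKI67, ASPM and CENPE stay above 1 in both, TOP2A and KIF11 cross 0, and S phase genes other than CCNE2 lie below 0 in both.

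The share of all counts taken by each phase shows how much the largest genes weigh. The 21 S phase genes took 0.557% and 0.560% of counts in FBG, 0.419% and 0.418% in FCP and 0.421% in both aC libraries, against 0.550% and 0.552% in Mock. Their summed level was 5679 and 5717 TMM-scaled CPM in FBG and 6075 and 6091 in Mock. For these genes FBG thus lay above Mock by share of counts and below it by TMM-scaled CPM. The sum was 3970 and 3960 in FCP and 3962 and 3963 in aC. The 27 G2 and mitosis genes took 0.644% and 0.643% in FBG, 0.656% and 0.654% in FCP, 0.658% and 0.654% in aC and 0.517% and 0.516% in Mock. By counting error alone, the share of G2 and mitosis genes in FBG replicate 1 has a 95% Wilson interval of 0.640% to 0.648%. MKI67 alone held 16.4% and 16.2% of the G2 and mitosis counts in FBG, 22.4% and 22.3% in FCP, 22.5% and 22.6% in aC and 7.20% and 7.29% in Mock. Summed over the 27 genes, the level was 6573 and 6560.4 TMM-scaled CPM in FBG, 6224 and 6193 in FCP, 6192 and 6152 in aC and 5706 and 5696 in Mock. Without the 4 genes of at least 8000 bases, the summed level of the other 23 was 5054 and 5070 TMM-scaled CPM in FBG, 4185 and 4175 in FCP, 4004 and 3979 in aC and 5153 and 5136 in Mock. As a share of all counts, those 23 took 0.495% and 0.497% in FBG, 0.441% in both FCP libraries, 0.425% and 0.423% in aC and 0.467% and 0.465% in Mock. With the 4 genes the total was above Mock on both scales in all 3 treated groups. Without them it was below Mock on both scales in FCP and aC, while FBG lay below Mock by TMM-scaled CPM and above it by share of counts.

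Per kilobase of exon, the order of genes within the G2 and mitosis phase changed. MKI67 averaged 80.8 TMM-scaled CPM per kilobase in FBG, 105 in FCP and 105 in aC, against 31.2 in Mock. It ranked 10 of 27 in FBG and 3 in FCP and aC, and 20 in Mock. CDC20 was first in Mock, at 214 per kilobase, and ranked 3 in FBG and 2 in FCP and aC. CCNB1 ranked 4 in FBG and 6 in FCP and aC, against 2 in Mock. TOP2A was the first in FCP and aC, at 125 and 124. CENPE stayed last in all 4 groups, at 8.07 in FBG, 12.3 in FCP and 16.2 in aC, against 2.84 in Mock. In the S phase list MCM7 was first and POLA1 last of 21 in all 4 groups. Ranks depend on the length used. Per kilobase of the longest coding transcript, MKI67 ranked 11 in FBG, 4 in FCP and 3 in aC, against 20 in Mock, CDC20 ranked 2 in Mock, RRM2 was first of the S phase genes in FBG, and POLA1 ranked 17 to 19.

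FCP and aC differed in 1 S phase gene and in 14 of the 27 mitotic ones. In aC against FCP 1 of 21 S phase genes rose and 0 fell, where 4.57% of all tested genes rose and 4.45% fell. DESeq2 also called 0 of them fallen, and 3 of them (RRM1, CDC6 and CHAF1B) had a negative change at an unadjusted p under 0.05 in edgeR. Of the G2 and mitosis genes 4 rose and 10 fell. CENPE rose by 0.39 ± 0.04, KIF20B by 0.29 ± 0.04, ASPM by 0.29 ± 0.03 and CENPF by 0.27 ± 0.02, so that 4 of the 5 genes highest above Mock were higher still in aC. MKI67 was at 0.01 ± 0.01 (adjusted p = 0.887). KIF2C fell by 0.19, BUB1 by 0.19, BUB1B by 0.18, AURKA by 0.17, TPX2 by 0.16, CDCA8 by 0.16, CDC20 by 0.12, CCNB1 by 0.10, PLK1 by 0.10 and BIRC5 by 0.10. CDT1, the S phase gene that rose, was at 0.17 ± 0.04, and it was not called after removal of the GC and length trends (0.07).

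Several of these calls rested on single libraries. Without aC replicate 2, CDT1 (0.15), PLK1 (-0.09), CCNB1 (-0.08) and BIRC5 (-0.08) were not called. BIRC5 (-0.10) and CDCA8 (-0.12) were not called without FCP replicate 1, CCNB1 (-0.09) without FCP replicate 2 and CDCA8 (-0.15) without aC replicate 1. NUSAP1 and RRM1 became called in 3 such fits each, at up to -0.14 for NUSAP1 and -0.07 for RRM1. The calls of CENPE, KIF20B, ASPM, CENPF, KIF2C, BUB1, BUB1B, AURKA, TPX2 and CDC20 held in all 8 fits that left out a library.

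**Figure D5:**
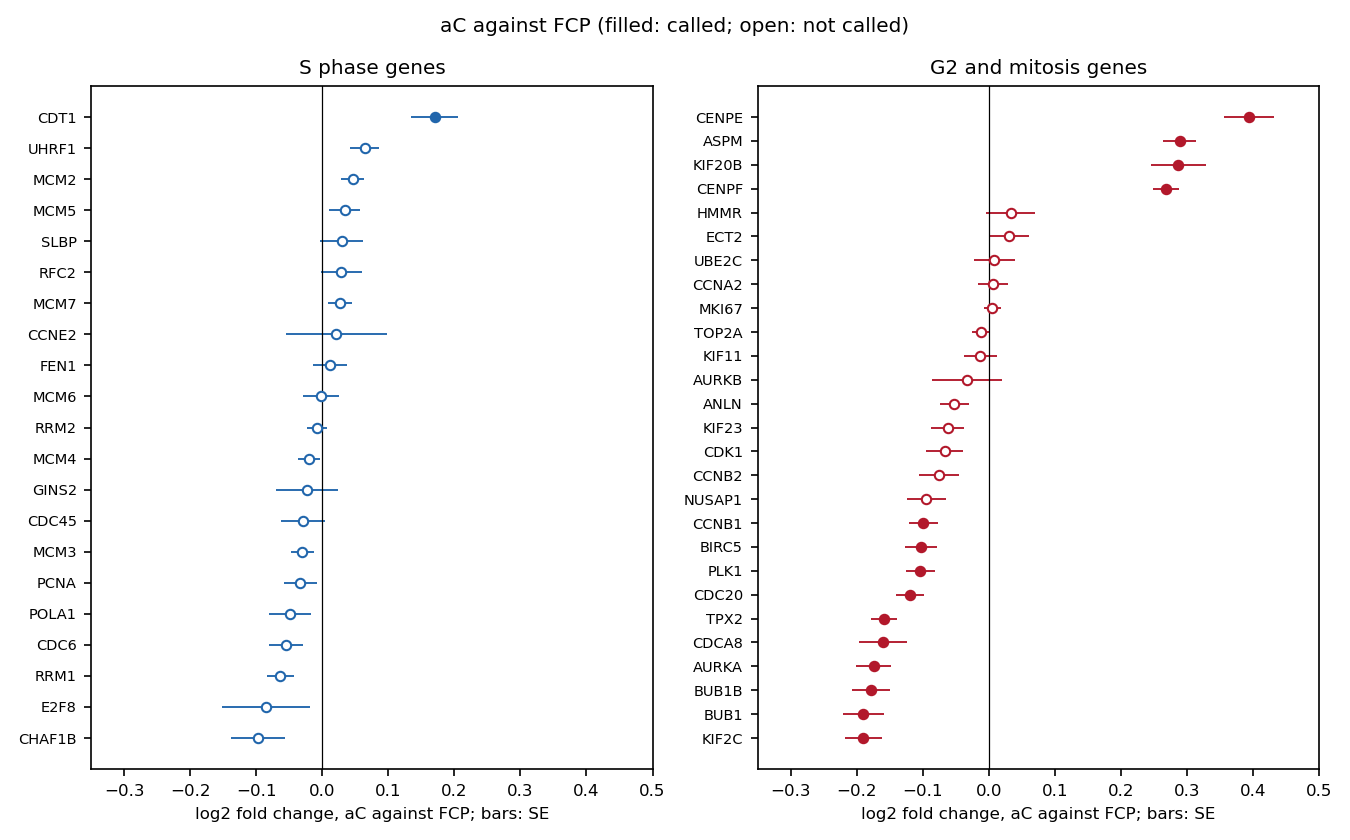
Log2 fold change in aC against FCP (x axis) for each S phase gene (left) and G2 and mitosis gene (right), with SE bars. CENPE, ASPM, KIF20B and CENPF lie between 0.27 and 0.39, and the other called mitotic genes between -0.10 and -0.19.

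Set against FBG in place of Mock, most members were lower in FCP and aC. In FCP against FBG 0 of the 21 S phase genes rose and 20 fell, and 6 of the 27 G2 and mitosis genes rose and 18 fell, where 32.6% of all tested genes rose and 34.2% fell. CCNE2 was the S phase gene not called, at -0.17 (adjusted p = 0.0629). In aC against FBG 0 S phase genes rose and 20 fell, and 6 G2 and mitosis genes rose and 19 fell, where 33.8% rose and 34.5% fell over all tested genes. All S phase values were below 0 in both, and DESeq2 called 0 of them risen too. These comparisons share the FBG libraries. S phase medians were -0.55 and -0.56, and G2 and mitosis medians -0.24 and -0.31, while all tested genes had medians of 0.02 in both.

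MKI67, CENPF, CENPE, ASPM and KIF20B rose in FCP and in aC against FBG as well, by 0.37, 0.53, 0.61, 0.58 and 0.35 in FCP and by 0.38, 0.80, 1.004, 0.87 and 0.64 in aC. The sixth gene was BUB1 in FCP (0.10) and HMMR in aC (0.12). E2F8, GINS2 and CDC6, risen in FBG against Mock, fell by 0.92, 0.92 and 0.87 in FCP against FBG. CDK1, BUB1B and NUSAP1, also risen in FBG against Mock, fell by 0.41, 0.53 and 0.64. CCNE2 was called without FBG replicate 1, at -0.26 in FCP and -0.24 in aC, and in FCP without Mock replicate 2, at -0.18. BUB1 was not called in FCP against FBG without FBG replicate 2 (0.08) or FCP replicate 1 (0.08), and HMMR was not called in aC against FBG without FBG replicate 1 (0.08) or aC replicate 1 (0.08). HMMR was called in FCP against FBG without FBG replicate 2 (0.11) or either aC library (0.09 and 0.09).

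Other genes of the same pathways gave a broader view. Of 198 genes in 12 lists 193 were tested. In FCP against Mock 62 rose and 109 fell (median -0.27), in aC against Mock 61 rose and 115 fell (median -0.32), and in FBG against Mock 73 rose and 65 fell (median -0.02). The shares of all tested genes are those given above.

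Of 19 genes for DNA polymerases, the clamp loader and replication protein A 3 rose and 15 fell in FCP (median -0.44) and 2 rose and 9 fell in FBG. RNASEH2A, a nuclease for RNA in DNA, stood at -1.22 in FCP, the polymerase subunit POLD2 at -0.98 and the single-strand binding gene RPA1 at -0.89. Of 8 genes of deoxynucleotide synthesis 1 rose and 7 fell, among them thymidine kinase TK1 (-1.11) and DTYMK (-0.82). Of 20 origin licensing and firing genes 8 rose and 8 fell, or 6 and 12 with GC and length trends removed, with the helicase subunits GINS4 at -0.84 and GINS1 at -0.70 and the helicase-related MCM8 at 0.62. Of 6 genes of chromatin assembly and maintenance methylation 2 rose and 4 fell, with CHAF1A at -0.71, DNMT1 at -0.34 and HELLS at 0.68.

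Replication checkpoint genes went the other way, with 5 risen and 2 fallen of 8 in FCP (median 0.73). With GC and length trends removed 4 rose and 2 fell (median 0.39). ATR, the kinase that senses stalled forks, stood at 1.10, its adaptor CLSPN at 0.83 and TIMELESS at -0.60. Among the E2F, RB and MuvB factors that control both phases, 7 rose and 10 fell of 19 in FCP. FOXM1, MYBL2 and RBBP4 stood at -0.76, -0.52 and -0.66 in FCP, and at -0.23, 0.12 and -0.04 in FBG, where RBBP4 was not called. Of 15 entry regulators 2 rose and 12 fell in FCP. CDKN1A, the inhibitor p21, rose by 0.82 in FCP and 1.05 in aC, and by 0.08 in FBG, while CKS1B stood at -0.86 and CDKN3 at -0.95 in FCP.

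Mitotic lists also held genes of both directions, in proportions that differed between lists. Of all tested genes 24.2% rose and 26.3% fell in FBG, and 37.3% rose and 36.1% fell in FCP. Kinetochore and centromere genes rose in 18 and fell in 3 of 33 cases in FBG, and rose in 11 and fell in 17 in FCP. With GC and length trends removed 9 rose and 8 fell in FBG, and 8 rose and 18 fell in FCP. KNL1, the scaffold of the outer kinetochore with 9344 exon bases, stood at 1.94 in FBG, 2.16 in FCP and 2.30 in aC, and KNTC1 at 0.82 in FCP. Condensin and cohesin genes rose in 11 and fell in 5 of 18 cases in FCP (median 0.53), with SMC2 at 1.81, SMC4 at 0.96 and the cohesin loader NIPBL at 1.74. Mitotic kinesins and spindle proteins rose in 8 and fell in 13 of 23 cases, with KIF20A at -1.02, KPNA2 at -0.89 and TACC3 at -0.84. Of 19 genes of the anaphase-promoting complex and securin 3 rose and 12 fell, led by UBE2S (-1.52), securin PTTG1 (-1.45) and ANAPC11 (-0.94). Of 5 spindle checkpoint genes 1 rose, TTK at 0.89, and 4 fell, among them MAD1L1 (-0.97) and TRIP13 (-0.60). Long genes of these lists did not all rise: NUMA1 with 9130 exon bases stood at -0.32, CIT with 9780 at -0.15 and CHAF1A with 9672 at -0.71 in FCP, all 3 called.

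In aC against FCP 8 of the 193 pathway genes rose and 26 fell, where 4.57% of all tested genes rose and 4.45% fell. Mitotic kinesins and spindle proteins made up 9 of the 26. After removal of GC and length trends 48 pathway genes rose and 119 fell in FCP against Mock, and condensin and cohesin genes turned to 8 risen and 9 fallen of 18. KNL1 and SMC2 remained high, at 1.38 and 0.91, while HELLS turned to -0.24.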

How the data were processed

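RNA of 8 BEAS-2B libraries was sequenced. Per the labels' protocols, messenger RNA was enriched and copied with random primers. The authors deposited counts of read pairs per gene, made with featureCounts 1.6.0 in paired-end mode over exons, and per the file headers neither a strand nor a multi-mapping option was set. The submitters' processing notes list featureCounts 1.6.2, SAMtools 1.9, HISAT2 2.2.1 and Trimmomatic 0.39, and the build GRCh38.p14. Length is the deposited count of exon bases per gene.

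Counts were tested in R 4.3.3 with edgeR 4.0.16 (quasi-likelihood, robust, TMM, filterByExpr by group), all 8 libraries in 1 fit with 4 residual degrees of freedom, Benjamini-Hochberg over 16307 genes and a call at 0.05. The SE is the absolute fold change over the square root of the F statistic. DESeq2 1.42.0, other scalings, no filter, 4-library fits, a replicate block, removal of trends with mgcv 1.9.3 and each library left out were alternatives. The steps were tested on simulated data. GC content came from GENCODE 29 transcripts and covered 14330 tested genes and all 48 members. Members, gene lists and tests were chosen with earlier results of these data known. Given per library were the 4 genes of each phase with the largest called change in FBG, FCP or aC against Mock, up to 3 per phase in aC against FCP, and PCNA, MCM2, CCNE2, MKI67, CENPF, TOP2A, CCNB1 and CDK1; up to 3 examples per pathway list had the smallest p in FCP against Mock. The labels do not say whether equal replicate numbers pair the libraries, and the main fit used no pairing. Intervals cover counting error only. Some results are not reported here.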

Additional observations from a re-analysis of the deposited data

How the results depend on the processing

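Counts of members risen or fallen stayed within 1.5 times of the reported ones in the 6 comparisons under all alternatives, except that with library size only 16 members fell in FBG against Mock. Library size only moved the median of all genes to 0.13 in FBG, 0.28 in FCP and 0.29 in aC against Mock, and S phase medians in FCP and aC to -0.42 and -0.43. With GC and length trends removed the G2 and mitosis median in FBG turned to -0.17. Differences between replicates 1 and 2 correlated by -0.03 to 0.06 between groups. Since much of this spread can be counting error, these values cannot show whether equal numbers shared a culture or day. With the replicate block the call status was the same for all 288 values (48 genes in 6 comparisons), with 25 members fallen in FBG against Mock. Leaving out 1 library turned no sign of a called member. Without FBG replicate 2 or aC replicate 1 ECT2, and without FBG replicate 1 or aC replicate 2 BUB1, were not called in aC against FBG. DESeq2 ended 6 calls, of GINS2 and POLA1 in FBG against Mock, BIRC5 in aC against FCP, ECT2 in FCP against FBG, and ECT2 and BUB1 in aC against FBG. The planned length from RefSeq proteins was not run, since no protein table was used here. In its place GENCODE 29 coding transcripts, chosen after seeing the data, gave rank correlations over all 48 genes of 0.62, 0.64 and 0.64 in FBG, FCP and aC against Mock, beside 0.65, 0.68 and 0.67.

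With GC and length trends removed, 22 values changed sign: in FBG against Mock MCM2 (0.013), MCM3 (0.13), MCM5 (0.039), RRM1 (-0.10), SLBP (0.026), POLA1 (-0.21), RFC2 (0.035), FEN1 (0.11), TOP2A (-0.027) and CDK1 (-0.35), in FCP against Mock CCNE2 (-0.037), TOP2A (-0.40), AURKB (0.021), KIF11 (-0.17) and KIF23 (-0.0077), in aC against Mock CCNE2 (-0.020), TOP2A (-0.42), KIF11 (-0.19) and KIF23 (-0.047), in FCP against FBG AURKB (0.24), and in aC against FBG CCNA2 (0.011) and AURKB (0.17). With the length trend alone removed, 8 values changed sign: in FBG against Mock PCNA (0.076), SLBP (0.024), POLA1 (-0.13) and FEN1 (0.017), in FCP against Mock TOP2A (-0.037), in aC against Mock TOP2A (-0.055), in FCP against FBG AURKB (0.24), and in aC against FBG AURKB (0.18). With library size only, 15 values changed sign: in FBG against Mock MCM3 (0.098), MCM6 (0.041), PCNA (0.044), RRM2 (0.035), SLBP (0.015), FEN1 (0.018) and CCNA2 (0.017), in FCP against Mock POLA1 (0.017), CDK1 (4.9e-05) and BUB1 (0.20), in aC against Mock CCNA2 (0.0037) and BUB1 (0.023), and in aC against FBG BUB1 (0.026), ANLN (0.081) and ECT2 (0.035). The cause was not tested.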
